A study of Mus musculus with 2 samples.

Results

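The hedgehog and PTHrP loop of the growth plate was followed through 10 of the 43346 mouse genes in the tables. The genes were taken by name: the ligands Ihh, Shh and Pthlh, the receptors Ptch1, Smo and Pth1r, the antagonist Hhip, and the transcription factors Gli1, Gli2 and Gli3. All 10 had a row in both libraries, and the rule that chose them uses no measured value. The libraries hold total RNA of whole limbs from mouse embryos of strain B6NCrl at 15.5 days, pooled over both sexes and labelled healthy. Replicate 1 was a pool of 78 embryos and replicate 2 a separate pool of 62 embryos. There was 1 group, with no treatment and no altered genotype, so the data give levels in normal limb and the difference between the pools. Which limbs were taken, fore or hind, is not given in the labels, and values are averages over every cell type of the limb.

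Hedgehog proteins are secreted signals. In cells that receive them, the ligand binds Ptch1, which otherwise keeps Smo inactive. Active Smo, acting at the primary cilium, shifts the balance among the Gli transcription factors from repressor toward activator forms. Ptch1, Gli1 and Hhip are themselves genes that hedgehog signalling turns on. In the growth plate, prehypertrophic chondrocytes make Ihh, and Ihh sustains Pthlh expression in the periarticular and resting cartilage. Pthlh encodes PTHrP, which acts through Pth1r on proliferating chondrocytes and delays their hypertrophy, and so limits the number of cells that make Ihh.

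Expected counts, which are estimated numbers of reads per gene, came to a total of 35104685 for replicate 1 and 41757268 for replicate 2, and spike-in RNA took 2.28% and 2.26% of them. Levels are given in TPM, transcript abundance scaled for transcript length and library size, and can be compared between genes. The labelled tissue showed its defining cell types: Col2a1 of cartilage stood at 689 and 731 TPM, Krt14 of epidermis at 1102 and 1029, and Col1a1 of bone and connective tissue at 4931 and 4017. The pools were not alike in muscle and bone. All 12 skeletal muscle markers were over 1.5-fold higher in replicate 1, with a summed level of 8867 TPM there and 2763 TPM in replicate 2. Of the 10 markers of prehypertrophic and hypertrophic chondrocytes, 4 (Ibsp, Spp1, Alpl and Mmp13) were also over 1.5-fold higher in replicate 1. The part of these differences in the values given here was not tested.

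The promoters of Pth1r are shown first, because its deposited transcripts divide between separate start sites. The gene lies on the minus strand at chr9:110722085-110747145 (GRCm38). RefSeq (GRCm38.p6) gave windows around 3 starts. The stretch upstream of each start is printed 5′ to 3′ on the strand of the gene, with each CG dinucleotide in capitals.
Pth1r, 250 bases upstream of Pth1r-202, chr9:110743687-110743936: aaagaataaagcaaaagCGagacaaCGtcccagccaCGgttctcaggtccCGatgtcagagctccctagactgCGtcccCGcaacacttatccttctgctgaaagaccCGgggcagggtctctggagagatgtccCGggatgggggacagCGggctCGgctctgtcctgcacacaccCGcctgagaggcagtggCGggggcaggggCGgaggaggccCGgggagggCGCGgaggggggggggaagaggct
Pth1r, 141 bases upstream of Pth1r-201, chr9:110742720-110742860: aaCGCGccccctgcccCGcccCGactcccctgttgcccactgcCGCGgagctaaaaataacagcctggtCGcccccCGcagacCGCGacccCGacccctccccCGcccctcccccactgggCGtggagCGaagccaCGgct
Pth1r, 250 bases upstream of the farthest start, chr9:110747146-110747395: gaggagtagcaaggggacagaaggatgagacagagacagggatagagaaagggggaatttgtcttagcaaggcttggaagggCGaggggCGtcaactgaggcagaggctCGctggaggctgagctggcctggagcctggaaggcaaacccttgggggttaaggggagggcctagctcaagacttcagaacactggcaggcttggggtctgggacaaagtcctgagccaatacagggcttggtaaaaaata
The stretches before Pth1r-202 and Pth1r-201 hold 16 and 15 CG dinucleotides in 250 and 141 bases, and the one before the farthest start holds 3 in 250. The share of G and C was taken over whole windows of 250 bases before to 50 after a RefSeq start. For Pth1r-201 this RefSeq start, at 110742610, lies inside the transcript, which begins at 110742719. The share was 68.0% and 69.3% in the windows holding the starts of Pth1r-202 and Pth1r-201, and 54.3% at the farthest start. The median over 32851 such windows of all genes was 52.7%. The deposited tables held rows only for Pth1r-201 and Pth1r-202, and the transcripts that begin at the farthest start had none. A copy of the Gli recognition motif GACCACCCA, searched on both strands, was in 0 of the 10 windows that RefSeq gives for 8 of these genes, and in 0.253% of all windows. That says only that these letters are not in these windows.

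Stretches of the coding sequence of related genes are shown next, because the reads of such relatives can be told apart only where their letters differ. Sequences are those of GENCODE M21 transcripts, printed 5′ to 3′ on the strand of the gene, with capitals at the positions where the members of a pair differ. Each stretch was taken around the longest identical run of its pair, so its likeness is not that of the whole transcripts. The ligand stretches lie at chr1:74948474-74948562 (Ihh, minus strand) and chr5:28461492-28461580 (Shh, minus strand), each within 1 coding exon.
Ihh: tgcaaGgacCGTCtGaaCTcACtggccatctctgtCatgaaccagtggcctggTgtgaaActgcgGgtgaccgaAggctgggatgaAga
Shh: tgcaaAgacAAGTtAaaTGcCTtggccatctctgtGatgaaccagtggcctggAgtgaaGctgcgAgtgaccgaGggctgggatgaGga
Over these 89 bases the ligands differ at 16 positions, so that 82.0% of the letters are the same. The Gli stretches cross introns and span chr1:118845976-118848388 (Gli2, minus strand) and chr13:15662525-15713589 (Gli3, plus strand).
Gli2: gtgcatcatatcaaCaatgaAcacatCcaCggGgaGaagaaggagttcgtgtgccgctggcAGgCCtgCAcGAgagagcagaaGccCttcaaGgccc
Gli3: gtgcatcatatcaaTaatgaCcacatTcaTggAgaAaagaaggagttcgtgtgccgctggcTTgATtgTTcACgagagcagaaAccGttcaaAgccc
Over these 97 bases the factors differ at 17 positions. The Gli2 and Gli3 transcripts share a longest identical run of 25 bases, the longest among the 9 pairs of relatives compared, and the Ihh and Shh transcripts one of 17 bases. The tables shorten every transcript of these genes by 99 bases to give the length over which reads can start. Counts came out whole, within 0.005, in both libraries for 8 of the 10 genes. The exceptions were Hhip, with 1536.08 counts in replicate 1, and Gli3, with 2703.10. Gli2, the relative of Gli3 shown here, had whole counts of 1335 and 1859. Hhip and Gli3 each share exonic bases with an overlapping gene whose counts were not whole either, given with the overlaps below.

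Of the 10 genes, 9 had at least 1 TPM in both libraries and 7 had at least 10 TPM. Their order by mean level was Pth1r, Smo, Gli3, Hhip, Gli2, Ptch1, Gli1, Pthlh, Ihh and Shh. Both libraries gave this order except for Gli2 and Ptch1, whose levels overlapped. The place of Gli2 next to Ptch1 and Gli1 also depends on a short noncoding transcript, as given below. The place of Gli3 above Hhip depends on shorter transcripts too. Gli3-201 alone was below Hhip-201 in replicate 1 (12.3 and 14.8 TPM) and above it in replicate 2 (15.6 and 13.3 TPM). The gap between the means of Gli2 and Ptch1 was 0.545 TPM, less than the larger SD of 0.948, and every other gap between neighbours exceeded the larger SD of its pair (n = 2). With 2 libraries these are descriptions of spread and not tests. Ihh and Pthlh, the secreted signals of the loop, were thus lower than every receptor, antagonist and transcription factor on the list.

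**Figure D1:**
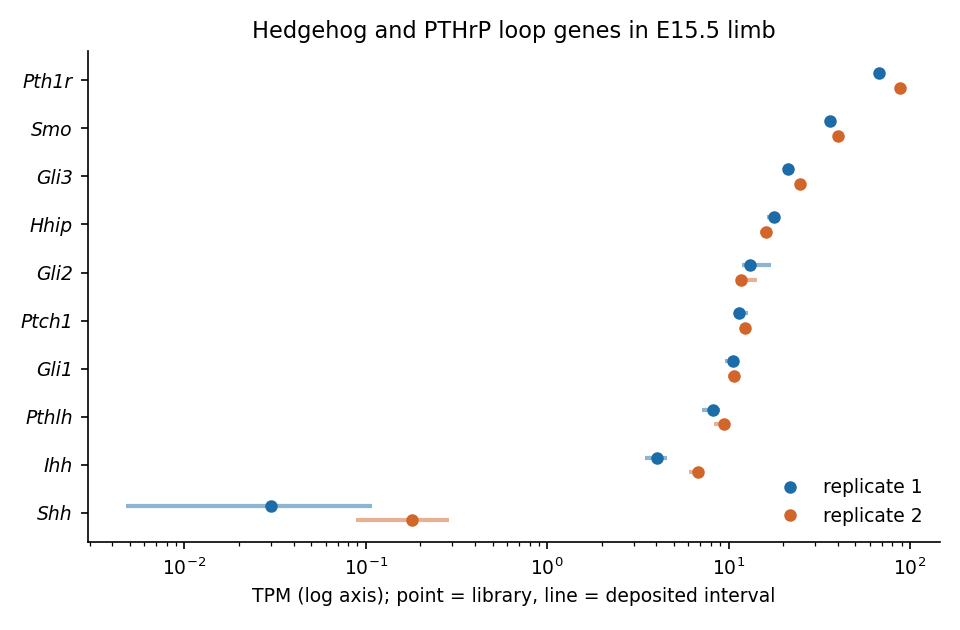
TPM of the 10 genes (log axis) in replicate 1 (blue) and replicate 2 (orange). Each point is 1 library and each line its deposited interval. Pth1r is highest at 67.2 and 88.7 TPM, Ihh stands at 4.04 and 6.76 TPM, and Shh is the only gene below 1 TPM.

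Ihh (ENSMUSG00000006538.10, chr1:74945315-74951672, minus strand), the hedgehog ligand of prehypertrophic cartilage, had 4.04 TPM in replicate 1 and 6.76 in replicate 2, from 205 and 412 counts. The deposited intervals, which cover counting and read assignment but not differences between pools, ran from 3.46 to 4.58 and from 6.02 to 7.35 TPM. Replicate 2 was therefore above replicate 1 by more than counting error, and Ihh moved more between the pools than any other of the 9 genes with a mean of at least 1 TPM.

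Shh (ENSMUSG00000002633.3, chr5:28456815-28467256, minus strand) is the hedgehog ligand of the posterior limb bud and of the hair placode. It had 2 counts in replicate 1 and 13 counts in replicate 2, which gave 0.03 and 0.18 TPM with overlapping deposited intervals (0.00478 to 0.108 and 0.0883 to 0.287). Scaled to library size, the ratio of replicate 2 to replicate 1 was 5.46, with an exact 95% interval from 1.24 to 49.9 that covers counting error only. Counts per effective length of Ihh exceeded those of Shh 36.7-fold in replicate 2, with an exact interval from 21.2 to 69.6. In replicate 1 the ratio was 117, with an interval from 31.9 to 971 because it rests on the 2 counts of Shh. Dhh, the hedgehog ligand of nerve sheath and testis, had 2.75 and 2.28 TPM, between Shh and Ihh. Markers of the tissues where Shh is known were mixed in level and direction. In the list for the zone of polarizing activity and the ridge, 7 of 10 genes had a mean of at least 1 TPM, 4 of them higher in replicate 2 and 3 in replicate 1, with a median log2 difference of 0.16. Of these, 2 were over 1.5-fold higher in replicate 2, among them Hoxd13 (17.6 and 26.6 TPM), while Bmp4 was nearly even (25.6 and 24.5) and Fgf9 lower in replicate 2 (10.4 and 9.05). Fgf8 of the ridge had 0.26 and 0.42 TPM. In the list for the hair placode and follicle, 8 of 10 genes had a mean of at least 1 TPM, 5 of them higher in replicate 2, 2 higher in replicate 1 and 1 (Wnt10b) even, with a median log2 difference of 0.19. Lhx2 (4.27 and 7.02 TPM) and Fgf20 (0.65 and 1.41) were over 1.5-fold higher in replicate 2, while Lef1 (32.9 in both libraries) and Bmp2 (19.6 and 20.4) were nearly even and Eda was lower there (3.79 and 3.09). These levels do not show that the polarizing zone, the ridge or placodes were present in limbs of 15.5 days. The part of such cells in the Shh value was not tested.

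Pthlh (ENSMUSG00000048776.6, chr6:147252101-147264183, minus strand), which encodes PTHrP, had 8.23 and 9.39 TPM from 276 and 385 counts. Its level exceeded that of Ihh 2.01-fold in replicate 1 and 1.38-fold in replicate 2, so in TPM the ligands kept their order while the distance between them shrank. In replicate 2 this order rests on the division by transcript length, since Ihh had 412 counts there and Pthlh 385. The other ligands of the parathyroid hormone receptors were near absent: Pth had 0 counts in both libraries, which allows up to 0.0855 and 0.0718 CPM (counts scaled to library size), and Pth2 had 0 and 0.08 TPM.

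Pth1r (ENSMUSG00000032492.10), the shared receptor of PTHrP and parathyroid hormone, was the highest of the 10 genes at 67.2 TPM in replicate 1 and 88.7 in replicate 2, from 3206 and 5173 counts. Its deposited intervals were apart (63.3 to 67.8 and 84.6 to 89.3 TPM). Pth1r exceeded its ligand Pthlh 8.70-fold on average, with a log2 ratio of 3.12 ± 0.15 (SD, n = 2). It exceeded Ihh 14.5-fold, with a log2 ratio of 3.86 ± 0.23. The related receptor Pth2r had 0.29 and 0.40 TPM. Pth1r is made both by chondrocytes and by cells of the bone lineage, and it stood at 2.33 times the level of the hypertrophic collagen Col10a1 (29.4 and 37.2 TPM), with a log2 ratio of 1.22 ± 0.04. In bulk tissue, fewer cells of a type and less RNA per cell cannot be told apart.

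Ptch1 (ENSMUSG00000021466.7, chr13:63508328-63573598, minus strand), the hedgehog receptor that restrains Smo, had 11.5 and 12.3 TPM from 1731 and 2300 counts. Smo (ENSMUSG00000001761.6, chr6:29735503-29761365, plus strand), the seven-pass membrane protein that carries the signal inward, had 36.4 and 40.2 TPM. Smo was 3.20-fold above Ptch1, and this was among the steadiest of the 13 ratios plotted, at 3.15 in replicate 1 and 3.25 in replicate 2. Ptch1 exceeded Ihh 2.80-fold in replicate 1 and 1.80-fold in replicate 2, as Ihh differed between the pools and Ptch1 hardly did.

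Hhip (ENSMUSG00000064325.3, chr8:79965851-80058006, minus strand), a membrane protein that binds hedgehog ligands and keeps them from Ptch1, had 17.9 and 16.2 TPM from 1536 and 1686 counts. It stood 1.43-fold above Ptch1, with a log2 ratio of 0.52 ± 0.17. This order rests on the division by transcript length: on counts not divided by length the log2 ratio was −0.31. The deposited model of Hhip-201 was 4582 bases long and the one in GENCODE M21 is 9074 bases long, and the effect of this on its level was not tested.

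Gli3 (ENSMUSG00000021318.11, chr13:15463235-15730026, plus strand), the main repressor among the Gli factors, had 21.4 and 24.6 TPM. Gli2 (ENSMUSG00000048402.10, chr1:118834132-119053619, minus strand), the main activator, had 13.1 and 11.8 TPM. Gli1 (ENSMUSG00000025407.6, chr10:127329882-127341974, minus strand), an activator that is itself induced by hedgehog signalling, had 10.6 and 10.8 TPM, the smallest log2 difference between the pools of all 10 genes (0.03). Gli3 exceeded Gli1 2.14-fold (log2 ratio 1.10 ± 0.12) and Gli2 1.84-fold (log2 ratio 0.88 ± 0.25). Gli2 exceeded Gli1 1.16-fold, with a log2 ratio of 0.31 in replicate 1 and 0.13 in replicate 2. On the deposited gene values the order Gli3, Gli2, Gli1 was the same in both libraries. Without a short noncoding transcript of Gli2, described below, Gli2 had 10.2 TPM in replicate 1 and 11.3 in replicate 2. Gli2 then stood below Gli1 in replicate 1 and above it in replicate 2, so their order is not settled. These are RNA levels, and they do not show how much Gli3 protein is in its repressor form.

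**Figure D2:**
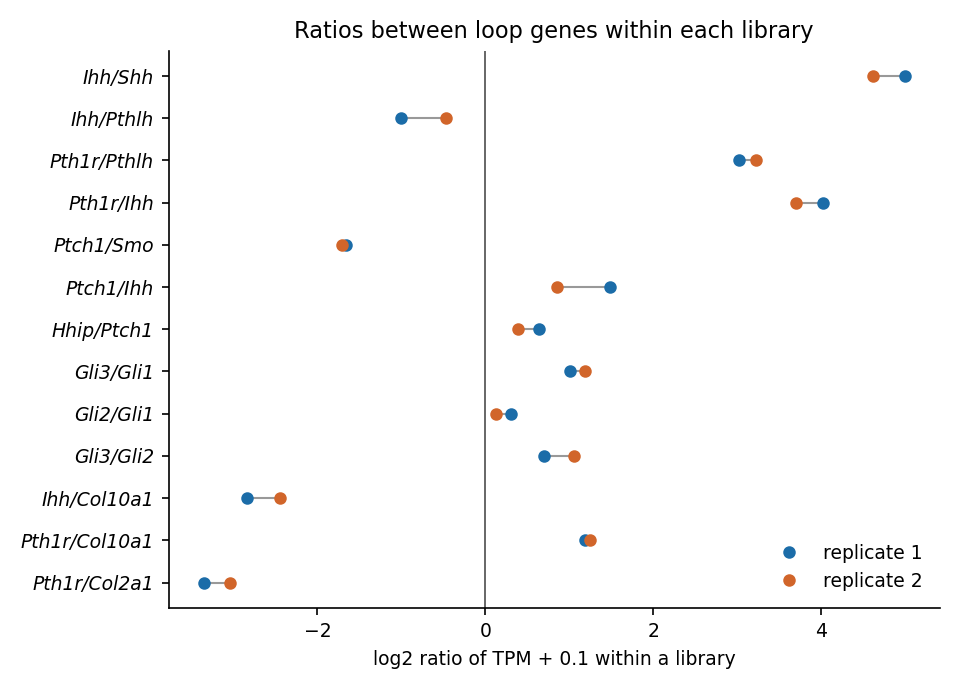
Log2 ratio of TPM (0.1 added to both genes) within replicate 1 (blue) and replicate 2 (orange) for 13 pairs, with a line joining the libraries. All 13 stay on the same side of 0 in both libraries, and Ptch1/Ihh shifts most with 0.1 added. The added 0.1 is large beside the Shh values (0.03 and 0.18 TPM), so the shift of Ihh/Shh cannot be read from this plot.

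Between the pools, 8 of the 10 genes were higher in replicate 2, as were 7 of the 9 with a mean of at least 1 TPM, against 44.9% of all 15571 genes at that level. The median log2 difference of the 9 genes was 0.14 and that of all these genes was −0.02. By the rule of a difference over 1.5-fold, taken on TPM with 0.1 added, 1 of 9 genes (Ihh, log2 difference 0.73) was higher in replicate 2, where 2.83% of all genes were. By the same rule 0 of 9 were higher in replicate 1, where 5.15% of all genes were. A log2 difference as large as that of Ihh was reached by 1.85% of all genes, and among the 4002 genes within 2-fold of its mean level 3.27% were over 1.5-fold higher in replicate 2. Deposited intervals did not overlap for 4 of 9 genes (Ihh, Pth1r, Smo and Gli3), all higher in replicate 2, where the share among all genes was 23.2%. No p-value can be given for 1 group of 2 libraries.

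**Figure D3:**
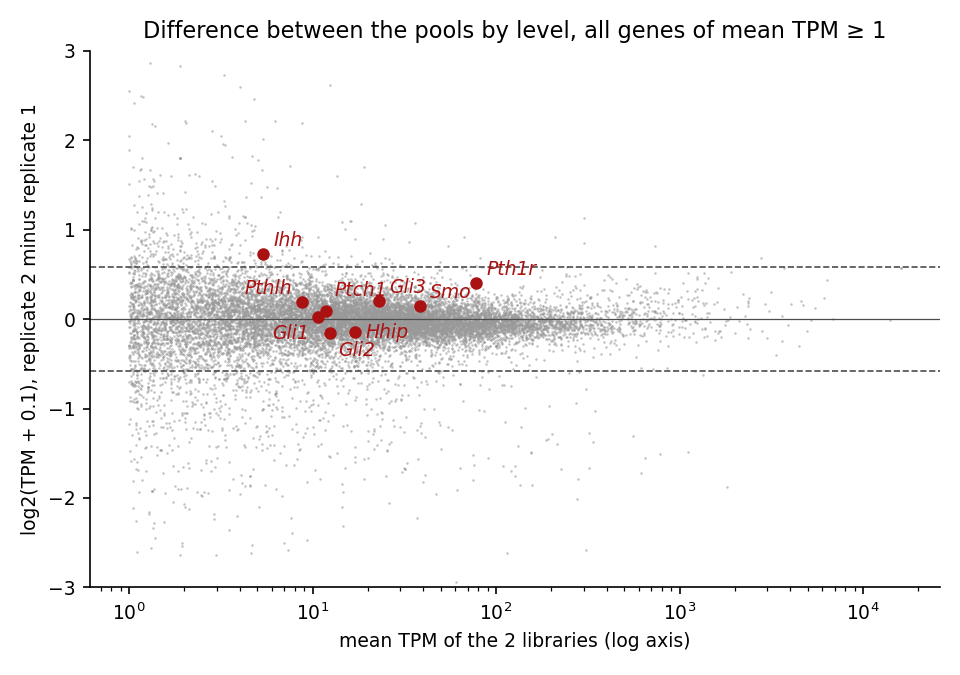
Difference between the pools, as log2 of TPM + 0.1 in replicate 2 minus replicate 1, against mean TPM (log axis) for all genes with a mean of at least 1 TPM (grey) and the 9 loop genes at that level (red). Dashed lines mark 1.5-fold, 102 genes lie outside the plotted range of 3 on either side, and Ihh is the only red point beyond a dashed line.

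While 7 of the 9 loop genes were higher in replicate 2, all 12 muscle markers, and 8 of the 10 perichondrium and osteoblast genes, were higher in replicate 1. Ihh, which prehypertrophic chondrocytes make, was higher in replicate 2 (log2 difference 0.73). Of the 10 prehypertrophic and hypertrophic chondrocyte genes, 7 were higher in replicate 1 and 3 in replicate 2, with a median log2 difference of −0.51. Col10a1 (0.34) was higher in replicate 2, while Runx2 (−0.48), Sp7 (−0.55), Ibsp (−0.78), Mmp13 (−1.25) and Spp1 (−1.28) were higher in replicate 1. Cells of the bone lineage also make several genes of this list, among them Runx2, Sp7 and Ibsp. The list is therefore not specific to hypertrophic chondrocytes, and the part of bone cells was not tested. Panx3 was nearly even at 18.8 and 18.9 TPM. The ratio of Ihh to Col10a1 rose from 0.140 in replicate 1 to 0.184 in replicate 2. The resting and round chondrocyte list was close to even, with a median log2 difference of 0.03 over 13 genes, and Sox9 stood at 61.8 and 63.4 TPM. Only Ucma of that list passed 1.5-fold, at 12.2 and 4.56 TPM. Relative to Col2a1, Pth1r stood at 0.0977 in replicate 1 and 0.121 in replicate 2, so its difference between the pools was not matched by this collagen of cartilage. Of the perichondrium and osteoblast list, 3 of 10 genes (Dmp1, Bglap2 and Bglap) were over 1.5-fold higher in replicate 1, where 5.15% of all genes were, and 0 of 10 in replicate 2. Bglap2 rested on 16.67 and 12.88 counts and Bglap on 11.21 and 6.76, with overlapping deposited intervals. Those of Dmp1 (12.1 and 6.37 TPM) were apart.

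Over the 6 pathway lists outside the 10 genes, 77 genes were listed, 69 had a mean of at least 1 TPM, and 1 was over 1.5-fold apart, where 2.83% of all genes were that much higher in replicate 2 and 5.15% in replicate 1. That gene was Scube3, a secreted carrier of hedgehog ligand, with 3.81 and 5.93 TPM. Disp1, which releases the lipid-bearing ligand from the cell, had 25.4 and 28.3 TPM, and Disp2 had 0.07 and 0.23. Hhat, which attaches palmitate to the ligand, had 10.1 and 9.43 TPM, and Scube2 had 10.3 and 9.52.

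Among the coreceptors, Gas1 (197 and 246 TPM), Boc (47.7 in both libraries) and Cdon (23.9 and 29.0) all stood above Ptch1, and Lrp2 had 0.01 and 0.02 TPM. Gas1, Boc and Cdon hold hedgehog ligand at the cell surface and present it to Ptch1. Of the 20 genes of the relay between Smo and the Gli factors, 19 had at least 1 TPM in both libraries and 0 passed 1.5-fold. The highest were Prkar1a, Csnk1a1, Prkaca and Spop, which include subunits of protein kinase A and a kinase that phosphorylate the Gli proteins, and their levels ran from 138 to 299.8 TPM. Sufu, which holds the Gli proteins in the cytoplasm, had 28.1 and 26.5 TPM, above Gli1, Gli2 and Gli3 in replicate 1 and in replicate 2. The lowest were Kif7, the kinesin of the cilium tip, at 4.09 and 5.12 TPM and the receptor Gpr161 at 0.80 and 1.04.

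All 16 genes of cilium transport had at least 1 TPM in both libraries and 0 passed 1.5-fold, with a median log2 difference of 0.06. Kif3a, a motor of ciliary transport, led with 55.8 and 64.8 TPM, followed by Ift52 (34.3 and 38.1), Ift81 (29.8 and 28.3) and Ift122 (18.4 and 15.03). The lowest were Ofd1 (5.03 and 4.81) and Kif3b (4.06 and 5.52). Of 14 further genes known to respond to hedgehog in limb or other tissues, 12 had at least 1 TPM and 0 passed 1.5-fold. The cyclin genes Ccnd2 (192 and 200.0 TPM) and Ccnd1 (108 and 104) were highest, then Osr2 (92.2 and 90.2) and Mycn (21.4 and 20.7), and Foxd1 (0.42 and 0.45) and Foxf1 (0.31 and 0.17) were lowest. Many other signals also act on these genes.

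Downstream of Pth1r, Gnas, which encodes the stimulatory G protein, had 1794 and 1773 TPM, and Gna11 had 67.9 and 67.2. Hdac5 had 80.3 and 80.7 TPM. Hdac4, the deacetylase through which PTHrP signalling holds back Mef2 factors, had 18.8 and 19.8 TPM, and its partner Mef2c had 64.1 and 47.0. Of the 16 genes in this list, 13 had a mean of at least 1 TPM and 0 passed 1.5-fold, with a median log2 difference of 0.00.

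**Figure D4:**
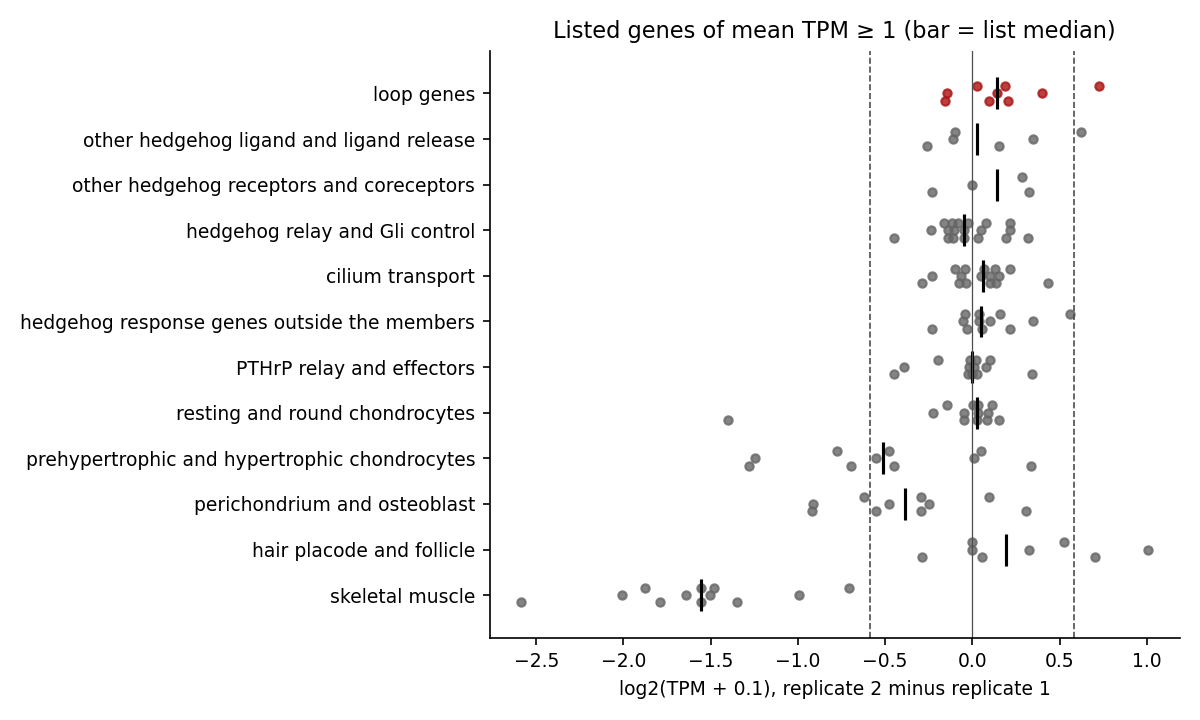
Log2 of TPM + 0.1 in replicate 2 minus replicate 1 for the loop genes (red) and for listed genes of the surrounding pathway and of limb cell types (grey), for genes with a mean of at least 1 TPM. Black bars are list medians and dashed lines mark 1.5-fold; the pathway lists lie near 0 and all 12 muscle markers lie below −0.7.

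The transcript tables held 31 transcripts of the 10 genes. Shh, Pthlh, Smo and Gli1 had 1 transcript each, and for the others the share of each transcript in the TPM of its gene was computed. Pth1r was divided almost evenly in both libraries between the start sites whose upstream sequences are given above. Pth1r-201 took 55.8% in replicate 1 and 56.4% in replicate 2, and Pth1r-202 took 44.2% and 43.6%. In GENCODE M21 these transcripts share 1933 bases, and differ in 374 and 232 bases of their own at the 5′ end, which hold no coding sequence, and in 54 bases at the 3′ end of Pth1r-202. The division thus rests on reads that touch a small part of each transcript. The deposited model of Pth1r-201 was 2252 bases long and the M21 model is 2307 bases long, so its own part was not fully the same in the authors' annotation.

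Ihh-201, the coding transcript, took 91.3% and 87.7% of Ihh, and Ihh-202, a retained intron transcript, took 8.66% and 12.3%. The difference of Ihh between the pools was also present in Ihh-201 alone, at 3.69 and 5.93 TPM. Ptch1-202 took 77.2% and 78.6% of Ptch1, and Ptch1-204, annotated for nonsense-mediated decay, took 12.7% and 14.6%. Hhip-201 took 82.6% and 82.1% of Hhip, and the noncoding Hhip-202 the rest. Gli3-201 took 57.6% and 63.4% of Gli3, the retained intron transcript Gli3-203 took 23.7% and 18.5%, and Gli3-202 took 18.8% and 18.0%. The largest shift among these shares was 5.89 percentage points, for Gli3-201. Its TPM was 12.3 in replicate 1 and 15.6 in replicate 2, with deposited intervals apart (11.5 to 12.5 and 14.8 to 15.8).

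The shares of Gli2 shifted further. Gli2-201, a coding transcript of 6637 bases, took 66.7% in replicate 1 and 86.8% in replicate 2. The short noncoding Gli2-202, of 367 bases, took 22.2% and 3.99%, and Gli2-206 took 11.1% and 3.23%. The share of Gli2-202 rested on 17.38 and 3.41 estimated counts out of 1335 and 1859 for the gene, since on a transcript this short few counts give a high TPM. Without Gli2-202 the gene had 10.2 and 11.3 TPM, a log2 difference of 0.15 toward replicate 2, where the deposited gene values gave −0.15. The direction of Gli2 between the pools is therefore not settled by these data, and Gli2-201 itself had 8.74 and 10.2 TPM. Gli1, at 10.6 and 10.8 TPM, was above Gli2-201 in both libraries. Without Gli2-202, Gli1 was above the gene value of Gli2 in replicate 1 and below it in replicate 2.

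**Figure D5:**
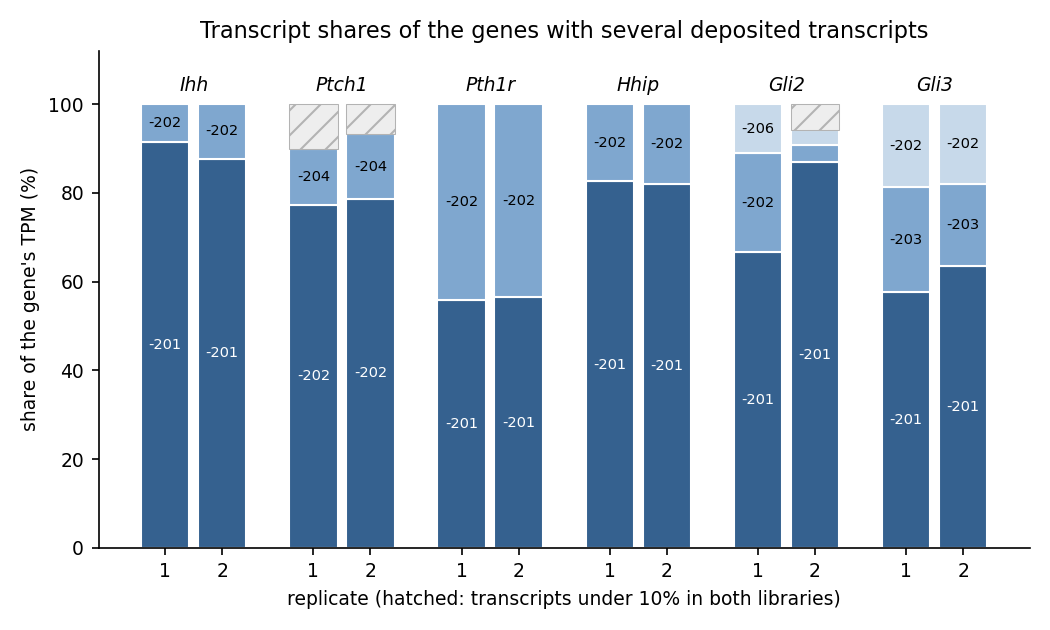
Share of each transcript in the TPM of its gene (%) for the 6 genes with several deposited transcripts, replicate 1 left and replicate 2 right. Numbers in the bars are transcript suffixes and hatched parts are transcripts under 10% in both libraries; Pth1r is divided 55.8% to 44.2% in replicate 1, and Gli2 differs most between the libraries.

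Some of these genes overlap others, and whether reads were counted by strand is not stated. Pth1r overlaps Myl3, a muscle gene on the opposite strand at 107 TPM in replicate 1 and 13.9 in replicate 2. Their exons share 95 bases in GENCODE M21, and only with Pth1r-205, which has no row in the tables. Pth1r was higher in the library where Myl3 was lower, and the part of Myl3 reads in the Pth1r value was not tested. Gli1 shares 62 exonic bases with the end of Arhgap9 (4.40 and 3.99 TPM). Shh shares exonic bases with 2 antisense genes, 9530036O11Rik (0 and 0.01 TPM) and Gm26894 (0 in both libraries). Hhip-201 shares 175 exonic bases with Gm27820 on the opposite strand (3.49 and 3.86 TPM, from 5.92 and 7.99 counts). Gli3 shares 188 with Gm6556, also on the opposite strand (1.05 and 0.98 TPM, from 36.90 and 48.83 counts). The counts of Hhip and Gli3 were not whole either, and whether reads were divided within these pairs was not tested.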

How the data were processed

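Total RNA was sequenced from 2 pools of E15.5 limbs. Per the labels, RNA longer than 200 nt was kept, 10 ng entered each library and spike-ins were added. The build was mm10 per the labels and the annotation GENCODE M4 per the sample records. The aligner is not given in the sources used here, nor is the counting program. Per the file headers, the authors' gene tables hold expected counts (estimated counts that need not be whole), and these were not rounded. The deposited TPM values are scaled by length and library, the deposited FPKM values served as an alternative, and the deposited percent column gives transcript shares, which lay within 0.0681 percentage points of those computed here. The deposited interval bounds are the authors' own.

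Rows were matched to GENCODE M21 (GRCm38) by gene identifier without version, and 42462 of 43346 had a symbol. Of the 31 transcripts, 24 had the same length in M21, 6 another length and 1 was not in M21. Differences between pools are log2 of TPM + 0.1, for genes with a mean of at least 1 TPM, and a difference over 1.5-fold was counted. Each pair ratio uses the same 0.1. Ranges in counting ratios are exact binomial intervals at 95%, and a count of 0 allows 3 counts. Named genes were drawn from all 10 loop genes, every pair, the 4 highest and 2 lowest of each list, genes over 1.5-fold apart, and transcripts of at least 10% in either library. Sox9, Panx3, Runx2, Sufu, Hdac4, Pth2r, Eda, the overlapping genes and the value of Gli2 without Gli2-202 were chosen after their values were seen. Results of 2 listed genes are not reported here. The genes and lists were chosen with earlier results of these data known. Not every marker list of the analysis is printed by name: the lists of epidermis, endothelium, peripheral nerve and dermal condensate had 0 genes over 1.5-fold apart, and the erythroid list had 1 (Hbb-y). Python 3.11.15, numpy 2.4.6, pandas 2.3.3, scipy 1.17.1 and matplotlib 3.10.9 were used. Only the rule of a difference over 1.5-fold was tested on simulated counts, with larger changes and without genes of low counts.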

Additional observations from a re-analysis of the deposited data

How the results depend on the processing

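The alternatives were posterior mean TPM, FPKM, CPM, centring on the median gene, scaling on spike-ins, pseudocounts of 1 and 0.01, a 2-fold rule and no filter on TPM. The number of loop genes over 1.5-fold apart went from 1 to 0 with the 2-fold rule and to 2 (Ihh and Shh) without the filter, and stayed at 1 (Ihh) under the others. The log2 difference of Ihh ranged from 0.62 to 0.76. The number of listed genes outside the loop over 1.5-fold apart was 26 and fell to 15 with the 2-fold rule. The ratio of Hhip to Ptch1 turned from 0.52 to −0.31 (log2) on counts not divided by length, and the difference of Gli2 between the pools turned from −0.15 to 0.23 in CPM. It was 0.15 without Gli2-202, an alternative chosen after seeing the data. The cause was not tested. Leaving out a replicate leaves 1 library, whose values are given above. No paired analysis was possible because there was only 1 group. Amplification from 10 ng of RNA adds noise that the counting intervals do not cover, and 2 pools cannot give the variation between limbs.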
